A study of Mus musculus with 112 samples.

Results

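The 31 genes described here encode the core proteins of autophagy, the route by which a cell wraps its own cytoplasm in a membrane sac and delivers it to the lysosome. They were listed by name, with no measured value in the rule, and all 31 are present in both deposited count tables, which hold 32544 gene symbols. The list falls into 4 steps: 9 genes of initiation, 12 of conjugation, 5 cargo receptors and 5 genes of the lysosome. All 31 had enough counts to be tested, with a median of 34 counts per library for the sparsest gene, Atg14.

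RNA came from the gastrocnemius, the large calf muscle, of 56 mice of the Diversity Outbred stock, whose animals each carry a genotype of their own. The animals were 28 females and 28 males aged 16 weeks, and a cast had held 1 hind limb of each for 3 weeks. The right limb was immobilized and the left limb served as control in every animal, so side and treatment cannot be told apart, and the control limbs come from casted animals. The 112 libraries form 4 groups of 28: control limbs of females, immobilized limbs of females, control limbs of males and immobilized limbs of males. Ribosomal RNA was depleted and the libraries were stranded.

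In autophagy, the kinases Ulk1 and Ulk2 start a growing membrane, and a lipid kinase built around Pik3c3 and Becn1 marks it. Proteins of the LC3 and GABARAP families are then attached to that membrane by a chain of enzymes, receptors on the cargo bind them, and the closed sac fuses with the lysosome. In skeletal muscle the pathway removes worn mitochondria and proteins, and several of its genes are textbook targets of FoxO factors, which act when muscle loses mass.

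Total counts ran from 1716485 to 9995936 per library, with a median of 4395118. The 6 markers of skeletal muscle fibres summed to group medians between 113700 and 132400 CPM, a gene's count relative to its library's total after TMM scaling. Acta1, the actin of muscle fibres, lay under 50% of its median in 10 libraries from 10 animals, 7 of them females, and in 1 of these, a control limb of a male, all 6 markers together reached 5.66 CPM. In those 10 libraries 24 of the 31 genes had a lower median than in the other 102, and 4 lay wholly below them: Atg9a, Map1lc3b, Sqstm1 and Ulk2. Of all genes tested, 48.7% had a lower median in those libraries and 3.19% lay wholly below. For example, Sqstm1 ran from 227 to 306 CPM in the low Acta1 libraries and from 372 to 954 CPM in the others. Atg7 went the other way, with medians of 25.0 CPM in the low Acta1 libraries and 14.1 CPM in the others. In males 15 and 16, each control limb resembled the immobilized limb of the other animal rather than its own. A fit without males 15 and 16 was also made, and its results are given in part.

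Averaged over the sexes, 7 of the 31 autophagy genes passed the test and 24 did not. Map1lc3a, an LC3 protein, and Atg7, the enzyme that activates LC3 and GABARAP proteins, rose in the immobilized limb. Gabarapl1, a GABARAP protein, Atg3, the enzyme that attaches these proteins to the membrane lipid, and 3 cargo receptors, Optn, Bnip3 and Bnip3l, fell. The changes were small, with the steepest decline at 0.733 times the control level for Gabarapl1 and the steepest rise at 1.27 times for Map1lc3a. A gene passed where edgeR's quasi-likelihood test, with a term for each animal, gave a Benjamini-Hochberg adjusted p of at most 0.05 over the 11886 genes tested. By that rule 2 of 31 genes rose, or 6.45%, where 9.58% of all genes rose, and 5 of 31 fell, or 16.1%, where 10.4% of all genes fell. The share of autophagy genes that passed in either direction, 22.6%, was thus near the share of all genes, 19.9%. The median fold change over the 31 genes was -0.00074 on the log2 scale, against 0.0055 for all genes, and the median absolute change was 0.10, against 0.14.

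**Figure D1:**
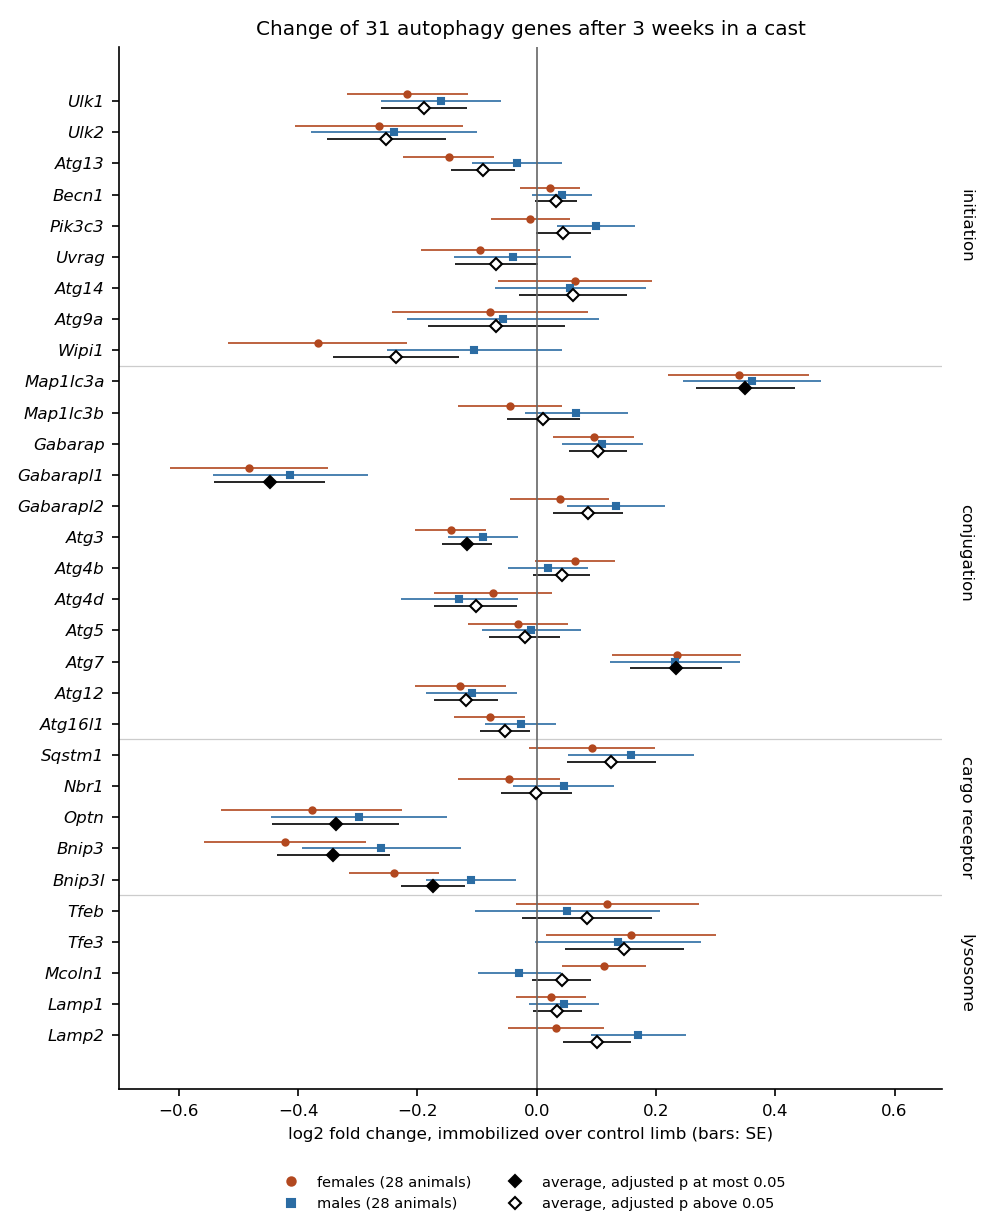
Fitted log2 fold change of the immobilized over the control limb for each of the 31 autophagy genes, grouped by step, with bars of 1 SE; circles are females, squares males and diamonds the average, filled where the adjusted p was at most 0.05. The 7 filled diamonds are Map1lc3a and Atg7 to the right of 0 and Gabarapl1, Atg3, Optn, Bnip3 and Bnip3l to the left.

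Within each sex fewer genes passed. In females Gabarapl1 alone passed, so that 1 of 31 genes fell and 0 rose, beside 2.47% of all genes that fell and 2.1% that rose. That call was lost without the filter on low counts and with females fitted alone. In males 0 of 31 passed by edgeR, beside 1.12% of all genes that fell and 1.09% that rose. At an unadjusted p of at most 0.05 the number was 5 in males, where 17.0% of all genes had such a p, and DESeq2 called 2 there, Gabarapl1 and Map1lc3a. Without males 15 and 16, 3 of the 31 had such an unadjusted p in males, beside 17.4% of all genes. Once the 10 low Acta1 animals were left out, 8 genes passed in females (2 higher, 6 lower), 5 in males (2 higher, 3 lower) and 11 in the average (3 higher, 8 lower). The count over all genes grew as well, to 17.2% in females, 9.13% in males and, from 2371 to 3814 genes, to 32.5% in the average. The 5 genes gained in the average were Ulk1, Ulk2, Wipi1 and Atg4d, which fell, and Sqstm1, which rose, while Atg3 no longer passed.

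The effect of the cast was next compared between the sexes. The male minus female difference passed for 0 of 31 genes by edgeR, as it did for 0% of all genes higher and 0% lower. None of the 31 had an unadjusted p of at most 0.05, and DESeq2 called 0 of them. The difference was widest for Wipi1, at 0.26 on the log2 scale with a 95% interval from -0.15 to 0.67. For Gabarapl1 the interval ran from -0.29 to 0.43 and for Bnip3 from -0.21 to 0.53, so differences of that size were not excluded at this precision.

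Among the 9 initiation genes 0 passed in females, males or the average by edgeR, where 4.57%, 2.21% and 19.9% of all genes did. In the average 3 of the 9 had an unadjusted p of at most 0.05, near the 34.1% of all genes with such a p, and DESeq2 called Ulk1 and Ulk2. Those 3 were the kinases Ulk1 and Ulk2 and the lipid-binding protein Wipi1, and all had lower medians in the immobilized limb. Ulk1 ran from 34.0 to 107 CPM with a median of 76.7 in control limbs of females, and from 32.3 to 119 with a median of 63.0 in their immobilized limbs. In males its control limbs ran from 37.3 to 123 with a median of 79.8 CPM, and the immobilized limbs from 40.0 to 109 with a median of 73.2. The groups overlapped over nearly their whole range. The average change of Ulk1 was -0.19 ± 0.07 (SE, n = 56 animals; edgeR adjusted p = 0.0526).

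Ulk2 followed the same course, with medians of 106 and 83.1 CPM in control and immobilized limbs of females and 109 and 91.4 CPM in those of males. Its average change was -0.25 ± 0.10 (SE; edgeR adjusted p = 0.0615), and it was lower in the immobilized limb of 42 of 56 animals. Wipi1 had medians of 55.6 and 43.0 CPM in females and 60.3 and 54.1 CPM in males, an average change of -0.24 ± 0.105 (SE; edgeR adjusted p = 0.101). These 3 genes passed the threshold once the low Acta1 animals were left out, with edgeR adjusted p of 0.0069 for Ulk1, 0.000647 for Ulk2 and 0.00303 for Wipi1. In that smaller set 3 of the 9 initiation genes passed in the average, or 33.3%, near the 32.5% of all genes that did. Ulk2 also passed there in each sex, beside 17.2% of all genes in females and 9.13% in males.

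The other 6 initiation genes lay within 0.10 of 0 on the log2 scale in the average. They are Atg13, a partner of the Ulk kinases, the lipid kinase subunits Becn1, Pik3c3, Uvrag and Atg14, and Atg9a, a membrane protein of the vesicles that feed the growing sac. Becn1 varied least between animals, with a coefficient of variation from 11.1% to 12.7% in the 4 groups. Its medians were 60.3 and 63.2 CPM in control and immobilized limbs of females and 58.9 and 60.9 CPM in those of males, an average change of 0.03 ± 0.04 (SE). Uvrag varied from 20.0% to 37.3% between animals of a group, and Atg9a, with an average change of -0.07 ± 0.12 (SE), was estimated least precisely of the 9.

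The conjugation step held genes that moved in opposite directions. Of its 12 genes 2 rose and 2 fell in the average, beside 9.58% and 10.4% of all genes. The median change over the 12 was -0.0046. The family of proteins that are attached to the membrane was itself split: Map1lc3a rose, Gabarapl1 fell, and Map1lc3b, Gabarap and Gabarapl2 did not pass.

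Gabarapl1 ran from 22.7 to 187 CPM with a median of 68.8 in control limbs of females, and from 26.5 to 94.4 with a median of 45.7 in their immobilized limbs. In males it ran from 29.7 to 126 with a median of 64.2 CPM in control limbs, and from 30.2 to 101 with a median of 49.5 in immobilized limbs. The ranges overlapped, and the highest values were in control limbs in both sexes. Gabarapl1 was lower in the immobilized limb of 43 of 56 animals. The log2 fold change was -0.48 ± 0.13 in females (SE; edgeR adjusted p = 0.0313), -0.41 ± 0.13 in males (adjusted p = 0.0718) and -0.45 ± 0.09 in the average (adjusted p = 0.000668).

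Map1lc3a moved the other way. It ran from 63.4 to 329 CPM with a median of 181 in control limbs of females, and from 69.2 to 461 with a median of 245 in their immobilized limbs. In males the control limbs ran from 104 to 290 with a median of 200.0 CPM, and the immobilized limbs from 139 to 418 with a median of 251. The groups overlapped, and 45 of 56 animals were higher in the immobilized limb, among them 24 of 28 males. The average log2 fold change was 0.35 ± 0.08 (SE; edgeR adjusted p = 0.00245), with 0.34 ± 0.12 in females (adjusted p = 0.0764) and 0.36 ± 0.12 in males (adjusted p = 0.0806).

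Map1lc3b, the LC3 gene most used as a marker of autophagy, did not pass in either sex or in the average. Its medians were 215 and 218 CPM in control and immobilized limbs of females and 206 and 210 CPM in those of males, and it was higher in the immobilized limb of 29 animals and lower in 26. The average change was 0.01 ± 0.06 (SE; edgeR adjusted p = 0.921). Gabarap had an average change of 0.10 ± 0.05 (SE; adjusted p = 0.12) and Gabarapl2 one of 0.09 ± 0.06 (SE; adjusted p = 0.3).

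**Figure D2:**
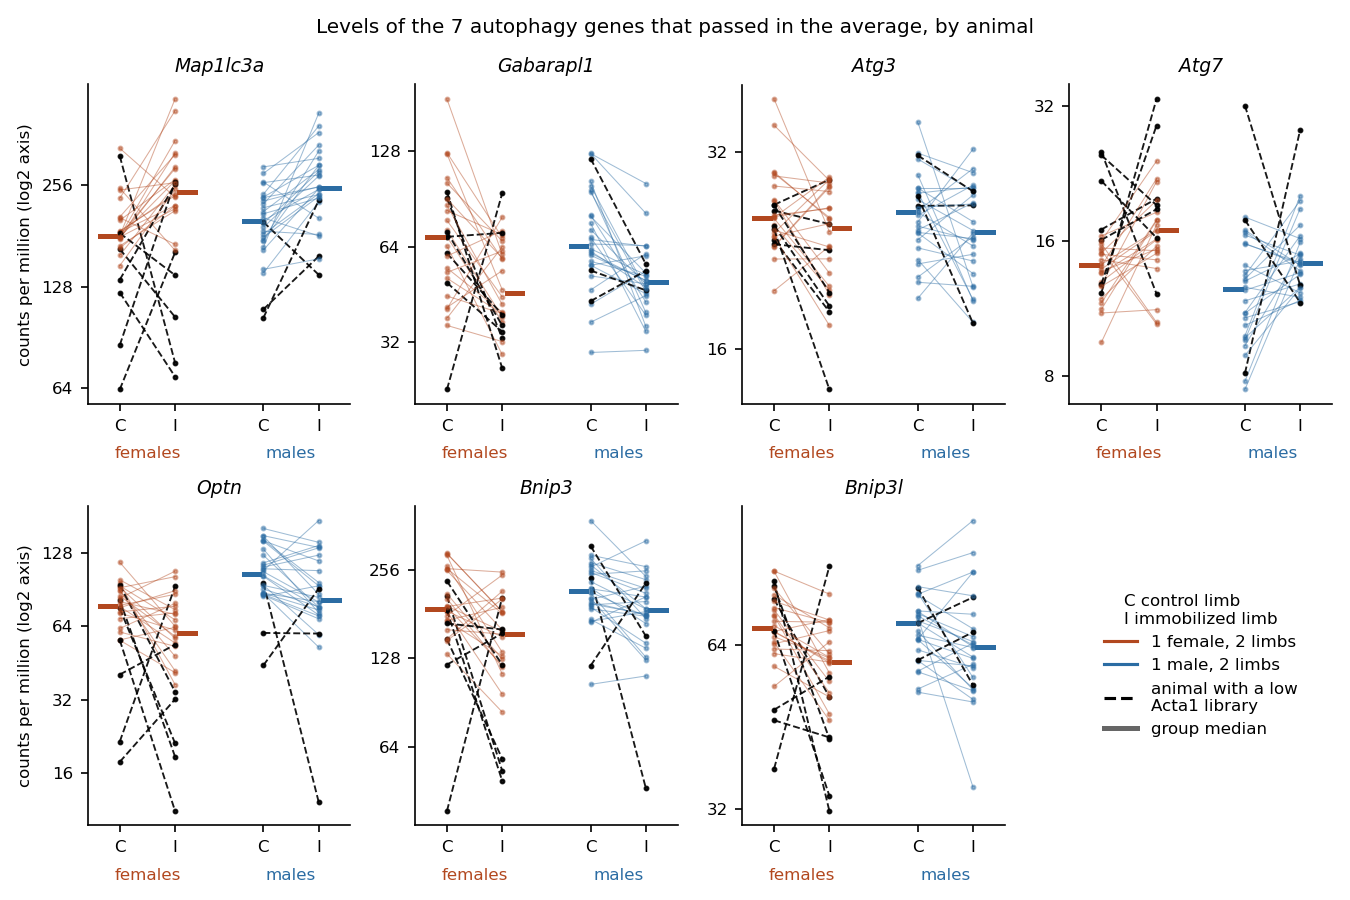
Levels in CPM on a log2 axis in the control (C) and immobilized (I) limb of each animal for the 7 autophagy genes that passed in the average; each line joins the limbs of 1 animal, bars mark the group medians, and dashed black lines are the 10 animals with a low Acta1 library. The medians of Map1lc3a and Atg7 were higher and those of the other 5 genes lower in the immobilized limb in both sexes, while the groups overlapped for every gene.

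Of the enzymes, Atg7 ran from 9.50 to 25.2 CPM with a median of 14.1 in control limbs of females and from 10.4 to 33.1 with a median of 16.9 in their immobilized limbs. In males the medians were 12.5 CPM in control and 14.2 CPM in immobilized limbs, with ranges from 7.47 to 32.0 and from 11.7 to 28.3. It was higher in the immobilized limb of 38 of 56 animals, with an average change of 0.23 ± 0.08 (SE; edgeR adjusted p = 0.0248). Atg3 had medians of 25.4 and 24.5 CPM in females and 25.9 and 24.2 CPM in males, and ranges from 13.8 to 38.6 CPM over all groups. Its average change, -0.12 ± 0.04 (SE; edgeR adjusted p = 0.039), was the smallest that passed, and under 7 of 7 other settings it did not pass, with adjusted p between 0.0534 and 0.176, the setting without males 15 and 16 among them (0.0555).

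The remaining 5 conjugation genes did not pass. Atg5, Atg12 and Atg16l1, which form the complex that directs attachment, changed by -0.02, -0.12 and -0.05 on the log2 scale in the average. Atg4b and Atg4d, proteases that trim LC3 and GABARAP proteins, changed by 0.04 and -0.10. Atg4d passed once the low Acta1 animals were left out, at -0.15 (edgeR adjusted p = 0.03), in a fit where 32.5% of all genes passed.

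The cargo receptors had the lowest median change of the 4 steps, -0.17 in the average. Of these 5 genes 3 fell and 0 rose, beside 10.4% of all genes that fell and 9.58% that rose. Bnip3 and Bnip3l sit on the outer membrane of mitochondria and tether them to LC3 and GABARAP proteins. Optn, Sqstm1 and Nbr1 bind cargo tagged with ubiquitin.

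Bnip3 ran from 38.9 to 290.3 CPM with a median of 189 in control limbs of females, and from 49.2 to 251 with a median of 155 in their immobilized limbs. In males it ran from 104 to 375 with a median of 217 CPM in control limbs, and from 46.5 to 320.2 with a median of 186 in immobilized limbs. It was lower in the immobilized limb of 41 of 56 animals, and the groups overlapped. The average log2 fold change was -0.34 ± 0.10 (SE; edgeR adjusted p = 0.00861). Neither sex passed alone, with -0.42 ± 0.14 in females (adjusted p = 0.0552) and -0.26 ± 0.13 in males (adjusted p = 0.305).

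Bnip3l, its close relative, had medians of 68.8 and 59.8 CPM in control and immobilized limbs of females, with ranges from 38.0 to 87.7 and from 31.7 to 89.5. In males the medians were 70.4 and 63.5 CPM, with ranges from 52.5 to 89.8 and from 35.1 to 109. It was lower in the immobilized limb of 43 of 56 animals, 23 of them females, with an average change of -0.17 ± 0.05 (SE; edgeR adjusted p = 0.0166). The share of counts from the mitochondrial genome had a median of 16.3% in control and 11.9% in immobilized limbs of females. Those of males had 17.7% and 13.8%. Whether that share changed with Bnip3 or Bnip3l across animals was not tested. In bulk tissue, fewer cells of a type and less RNA per cell cannot be told apart.

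Optn ran from 17.8 to 117 CPM with a median of 77.7 in control limbs of females, and from 11.2 to 108 with a median of 60.1 in their immobilized limbs. In males its control limbs ran from 44.3 to 161 with a median of 105 CPM and its immobilized limbs from 12.2 to 174 with a median of 82.5. It was lower in the immobilized limb of 39 of 56 animals, 22 of them males. The average log2 fold change was -0.34 ± 0.11 (SE; edgeR adjusted p = 0.0189).

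Sqstm1, the receptor known as p62, did not pass. It ran from 270.0 to 641 CPM with a median of 501 in control limbs of females and from 227 to 711 with a median of 548 in their immobilized limbs, and the medians in males were 624 and 648 CPM. Its average change was 0.13 ± 0.07 (SE; edgeR adjusted p = 0.229) with all animals and 0.14 (adjusted p = 0.0225) once the low Acta1 animals were left out, so the call turned on those animals. With those animals left out 32.5% of all genes passed. Nbr1 changed by -0.00074 ± 0.06 (SE; edgeR adjusted p = 0.995).

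None of the 5 lysosome genes passed by edgeR in females, males or the average, where 4.57%, 2.21% and 19.9% of all genes did. Averaged over the sexes, 0 of the 5 had an unadjusted p of at most 0.05 and DESeq2 called 0. All 5 estimates in the average lay above 0, between 0.03 and 0.15, where 51.0% of all genes lay above 0. Tfeb and Tfe3, transcription factors that switch on lysosomal genes, changed by 0.09 ± 0.11 and 0.15 ± 0.10 (SE). The calcium channel Mcoln1 changed by 0.04 ± 0.05. The membrane glycoproteins Lamp1 and Lamp2, which line the lysosome, changed by 0.03 ± 0.04 and 0.10 ± 0.06. Lamp1 ran from 304 to 547 CPM in control limbs of females with a median of 479, and had a median of 466 in their immobilized limbs and of 474 and 498 in control and immobilized limbs of males.

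Levels in the control limbs were then compared between the sexes over 10974 genes tested in those 56 libraries. Optn was 1.45 times higher in males than in females, a log2 difference of 0.53 ± 0.12 (SE; edgeR adjusted p = 0.00717), with group medians of 105 and 77.7 CPM and ranges that overlapped. It was the only 1 of 31 genes that passed with all animals, and 0 were lower in males, beside 0.975% of all genes higher and 0.756% lower in males. Sqstm1 was 0.28 ± 0.09 higher in males (SE; edgeR adjusted p = 0.108), and passed once the low Acta1 animals were left out.

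Animals carried numbers from 1 to 59 whose meaning the labels do not give, and the change was also fitted within the 20 animals numbered 1 to 20, the 18 numbered 21 to 40 and the 18 numbered 41 to 59. The fits found 1108, 1 and 2 genes in all in these 3 blocks, and 1108 is 9.69% of the genes tested. Among the autophagy genes 4 passed in animals 1 to 20, namely Gabarapl1, Bnip3, Optn and Wipi1, and 0 in the other blocks, where 2 and 3 of the 31 had an unadjusted p of at most 0.05, beside 9.3% and 9.73% of all genes. The decline of Gabarapl1 was -0.76 ± 0.11 (SE; edgeR adjusted p = 0.000226) in animals 1 to 20, -0.15 ± 0.16 in animals 21 to 40 and -0.38 ± 0.18 in animals 41 to 59. Map1lc3a had nearly the same estimate in each block, 0.37 ± 0.15, 0.33 ± 0.13 and 0.36 ± 0.15. Atg3 was at 0.01 ± 0.07 in animals 21 to 40 and at -0.23 ± 0.08 in animals 41 to 59. The blocks also differed in their animals with a low Acta1 library. These were animal 2 in the first block and animals 22, 26 and 35 in the second. In the third they were animals 41, 42, 44, 48, 52 and 55. The differences between blocks, and the part of those animals in them, were not tested.

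**Figure D3:**
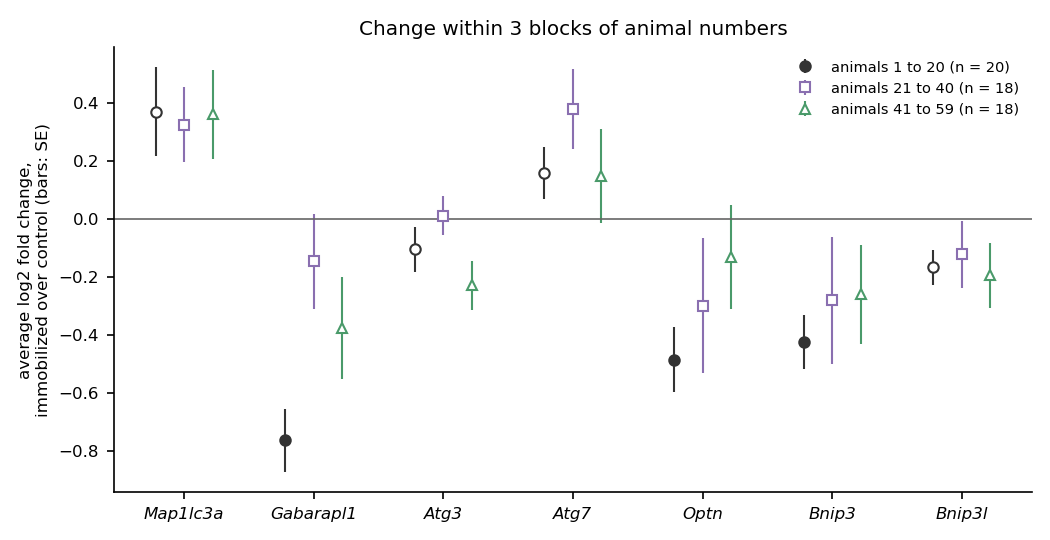
Average log2 fold change, with bars of 1 SE, of the 7 autophagy genes within 3 blocks of animal numbers; filled symbols have an adjusted p of at most 0.05. The estimates of Map1lc3a lie between 0.33 and 0.37 in all blocks, whereas those of Gabarapl1 run from -0.76 to -0.15.

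The change of 1 gene was set against that of another across animals for 6 pairs among Map1lc3b, Gabarapl1, Bnip3 and Sqstm1. The changes of a pair come from the same 2 libraries and so share their depth and their mixture of cells. Gabarapl1 and Bnip3 changed together over the 56 animals, with Pearson's r = 0.703 and Spearman's rho = 0.667 (two-sided permutation tests, both adjusted p at most 3e-05 over the 6 pairs). The relation was r = 0.559 without the 2 animals farthest from the median of Gabarapl1 and 0.67 without the low Acta1 animals. It was 0.613, 0.738 and 0.808 within the 3 number blocks. In females it was r = 0.854 and in males r = 0.34 (permutation p = 0.0747, rho = 0.538), and that difference was not tested. In animals 21 to 40 it fell to r = 0.267 without the 2 farthest animals, so there it rested on those.

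Map1lc3b and Sqstm1 also changed together, with r = 0.832 and rho = 0.692 (permutation adjusted p = 2e-05 and 3e-05), and r = 0.822 without the 2 farthest animals. Without the low Acta1 animals the relation was r = 0.603 and rho = 0.455 (permutation adjusted p = 3e-05 and 0.00408). It was 0.889, 0.763 and 0.868 within the number blocks. For the pairs of Map1lc3b with Bnip3 (r = 0.635), Map1lc3b with Gabarapl1 (r = 0.384) and Bnip3 with Sqstm1 (r = 0.45), the relation did not hold without the low Acta1 animals, where r was -0.00386, -0.0646 and -0.205 in that order. Gabarapl1 and Sqstm1 had r = 0.122 (permutation adjusted p = 0.369).

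**Figure D4:**
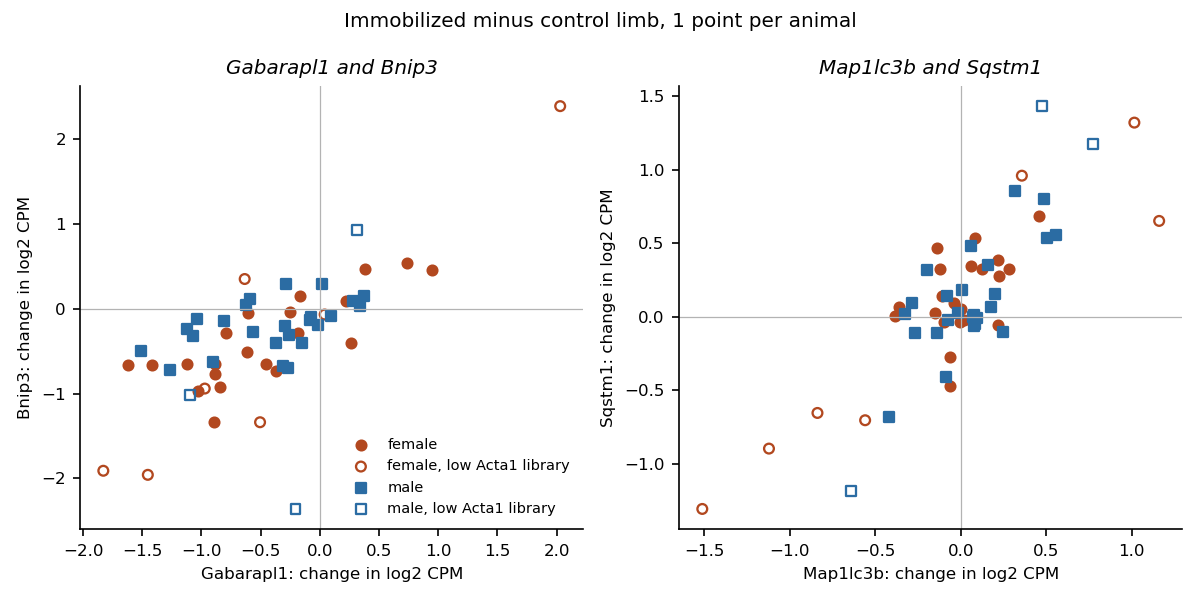
Change in log2 CPM from the control to the immobilized limb, 1 point per animal, for Gabarapl1 against Bnip3 (left) and Map1lc3b against Sqstm1 (right); circles are females, squares males and open symbols animals with a low Acta1 library. Points lie along a rising line in both panels, with r = 0.703 and r = 0.832, and open symbols are among the points farthest from 0.

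Because Gabarapl1 and Bnip3 moved together, the DNA before their start sites is shown, with that of Atg3 and Atg7, conjugation enzymes that moved in opposite directions, and of Lamp1, which did not pass. The windows used here came from RefSeq's promoter table on GRCm38.p6 and cover 25 of the 31 genes. No window was used for Becn1, Pik3c3, Map1lc3a, Atg12, Atg16l1 and Bnip3l, which does not show that the full table lacks them. Each window holds 250 bases before the start and 50 after it, and the 150 bases just before the start are printed, 5′ to 3′ on the gene's strand. They are chr6:129533042-129533191 (plus strand) for Gabarapl1, chr7:138909507-138909656 (minus) for Bnip3, chr16:45158679-45158828 (plus) for Atg3, chr6:114670946-114671095 (plus) for Atg7 and chr8:13159011-13159160 (plus) for Lamp1. Capitals mark CACGTG, the E-box that Tfeb and Tfe3 are known to bind.
Gabarapl1: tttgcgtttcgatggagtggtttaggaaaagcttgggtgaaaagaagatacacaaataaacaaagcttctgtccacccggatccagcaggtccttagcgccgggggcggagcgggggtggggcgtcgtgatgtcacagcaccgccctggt
Bnip3: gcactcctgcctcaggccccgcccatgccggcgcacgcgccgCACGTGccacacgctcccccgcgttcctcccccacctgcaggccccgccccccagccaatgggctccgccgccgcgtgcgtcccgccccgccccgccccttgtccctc
Atg3: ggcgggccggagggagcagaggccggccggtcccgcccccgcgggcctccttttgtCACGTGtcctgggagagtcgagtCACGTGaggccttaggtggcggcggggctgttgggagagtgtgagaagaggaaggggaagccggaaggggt
Atg7: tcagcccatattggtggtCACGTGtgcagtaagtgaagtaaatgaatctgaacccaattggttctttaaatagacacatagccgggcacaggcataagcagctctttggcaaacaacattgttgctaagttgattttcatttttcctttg
Lamp1: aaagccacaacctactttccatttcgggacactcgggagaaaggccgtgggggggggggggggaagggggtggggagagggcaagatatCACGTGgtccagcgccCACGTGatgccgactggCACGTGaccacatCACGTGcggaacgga

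CACGTG, which reads the same on both strands, occurred in the windows of 7 of the 25 genes: Atg3, Atg5, Atg7, Atg14, Bnip3, Lamp1 and Mcoln1. Lamp1 held 4 copies, Atg3 and Mcoln1 held 2 each and the rest 1. Counted by window, it was held by 7 of the 29 windows of these genes. The share was 7.15% of the 32851 windows of that length in the table and 10% of the 11443 that belong to tested genes. Those 2 shares kept windows on chr18, whereas the windows of the 31 genes were taken without that chromosome. The counts out of 25 genes and 29 windows therefore leave out any of the 31 genes that lie there. The 7 genes with the motif included 1 that rose (Atg7), 2 that fell (Atg3 and Bnip3) and 4 that did not pass. The shorter ACGTG, the core of the hypoxia response element, lies inside CACGTG. On either strand it was found in 12 of 25 genes, or 12 of their 29 windows, beside 25.3% of windows of tested genes. The forkhead motif GTAAACA and the estrogen-related receptor element AAGGTCA were searched on both strands, as those exact letters. They were found in 0 of 25 genes, beside 2.45% and 3.09% of windows of tested genes. Other forms of the forkhead motif were not searched. The printed stretch of Gabarapl1 holds ataaaca, which differs from GTAAACA in its first letter and was not counted. Such matches are letters in a window and show no binding.

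Outside the 31 genes, 112 further genes of the pathway were followed in 7 lists, all of them tested. In the average 18 rose and 18 fell, beside 9.58% and 10.4% of all genes. In females 6 rose and 2 fell, beside 2.1% and 2.47%, and in males 2 and 3, beside 1.09% and 1.12%. The lists differed in direction, as given next.

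The vacuolar proton pump, which acidifies the lysosome, had the most genes that rose: 9 of 16 rose and 1 fell in the average, beside 9.58% and 10.4% of all genes, and the median change was 0.15. Atp6ap1, an accessory subunit, had a median of 118 CPM in control limbs of females and 136 in their immobilized limbs, and of 106 and 135 CPM in males. It was higher in the immobilized limb of 50 of 56 animals and rose in both sexes, by 0.21 ± 0.05 in females (SE; edgeR adjusted p = 0.0133) and 0.32 ± 0.05 in males (adjusted p = 4.17e-05). Atp6v1f, a subunit of the part that splits ATP, rose by 0.29 ± 0.09 in females (adjusted p = 0.0405) and 0.31 ± 0.09 in males (adjusted p = 0.0398). Atp6v0c, a subunit of the membrane ring that carries protons, and Atp6v1e1 rose by 0.21 and 0.20 in the average. The 1 subunit that fell was Atp6v0a2, by 0.17 in the average (edgeR adjusted p = 0.0122), named here after its value was seen. Leaving out the low Acta1 animals, 8 of 16 rose and 1 fell beside 16.0% and 16.5% of all genes. Within the number blocks 2, 0 and 0 rose, beside 4.46%, 0.00842% and 0.0164% of all genes. The median change of the 16 genes was 0.095, 0.27 and 0.093 in those blocks.

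Among 22 lysosomal hydrolases and lipid carriers 6 rose and 1 fell in the average, beside 9.58% and 10.4% of all genes. Naglu, which breaks down heparan sulfate, rose by 0.49 ± 0.12 (SE; edgeR adjusted p = 0.00262), and Cd63, a protein of the lysosomal membrane, by 0.33 ± 0.07 (adjusted p = 0.00117). The protease Tpp1 fell by 0.13 ± 0.04 (adjusted p = 0.0122). With the low Acta1 animals left out, 8 of the 22 rose and 3 fell, beside 16.0% and 16.5% of all genes. Markers of macrophages, cells rich in lysosomes, moved beside this list: 11 of 12 rose in the average, with or without the low Acta1 animals, and Ptprc did not pass with all animals. Their summed level ran from 69.1 to 949 CPM in control limbs of females with a median of 124.5, and from 27.9 to 1991 with a median of 221 in their immobilized limbs. In males it ran from 24.5 to 477 and from 37.2 to 1712, with medians of 112 and 138 CPM. Adgre1, Cd68, Itgam and Ptprc were at 0 in at least 1 library. Their part in the result was not tested.

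Of 23 upstream kinases and transcription regulators 0 rose and 8 fell in the average, beside 9.58% and 10.4% of all genes. The median change was -0.18. Mtor, the kinase that holds autophagy back when nutrients are plentiful, fell by 0.30 ± 0.07 (SE; edgeR adjusted p = 0.00146) and its partner Rptor by 0.26 ± 0.07 (adjusted p = 0.00441). Prkaa1, a catalytic subunit of the energy sensor AMPK, fell by 0.28 ± 0.07 (adjusted p = 0.00273), and Fnip1, a partner of folliculin at the lysosome, by 0.48 ± 0.11 (adjusted p = 0.00184). Without the low Acta1 animals 2 rose and 13 fell, beside 16.0% and 16.5% of all genes.

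In the other lists fewer genes passed, and 3 of 15 in the fusion list and in the further initiation list is near the 19.9% of all genes that passed in the average. Of 17 further cargo receptors and mitophagy genes 1 rose and 4 fell, with a rise of 0.15 for Fkbp8 and declines of 0.34 for Ncoa4, the receptor for ferritin, 0.29 for Bcl2l13 and 0.22 for Fundc1, receptors on mitochondria. Of 15 fusion genes Vps11 rose by 0.14, and Stx17, the syntaxin of the closed sac, and Rab7 fell by 0.24 and 0.17, while Tecpr1 passed in males alone (-0.29 ± 0.08, SE; edgeR adjusted p = 0.0483). Of 15 further initiation genes Atg101 rose by 0.26, and Nrbf2 and Rb1cc1, the scaffold of the Ulk complex, fell by 0.23 and 0.30. Of 4 further conjugation genes 0 passed by edgeR or DESeq2 and 0 had an unadjusted p of at most 0.05, with changes of -0.11 for Atg10 and 0.07 for Atg16l2.

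**Figure D5:**
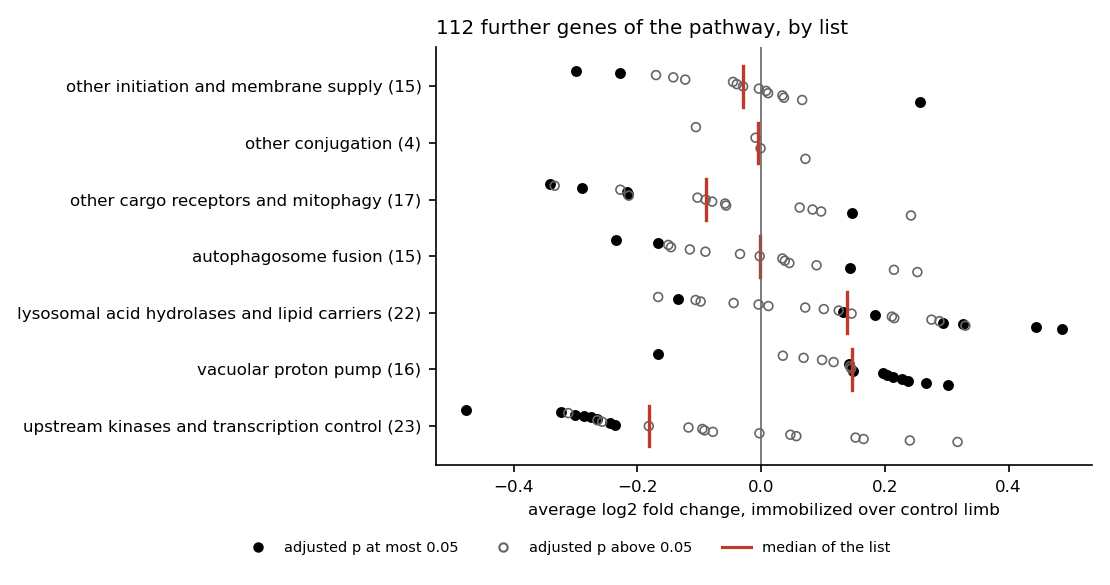
Average log2 fold change of the immobilized over the control limb for each of 112 further genes of the pathway in 7 lists, with the number of genes in parentheses; filled points have an adjusted p of at most 0.05 and red bars are list medians. The medians are 0.15 for the proton pump, 0.14 for hydrolases and lipid carriers and -0.18 for the upstream regulators, and the lowest of the other lists is at -0.09.

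Some of these counts may hold reads of other genes. In GENCODE vM21, 28.3% of the exon bases of Gabarapl1 overlap the transcript 1700101I11Rik on the opposite strand and 22.3% of those of Bnip3 an antisense gene, Gm45507. For Optn the overlap is 1.95%, and for Becn1, with Cntd1, 43.9%. For Atg9a 31.8% of exon bases lie in Gm29253 on the same strand. On the opposite strand, 17.3% of exon bases of Sqstm1 overlap Mrnip and 19.3% of those of Atg4d overlap Kri1. Bnip3l has a named pseudogene, Bnip3l-ps, and Atp6v0c, Cd63 and Rab7 have named pseudogenes as well. The libraries keep strand, but whether the counting used it is not given in the sources used here, and without it the reads of a gene and its antisense partner cannot be told apart.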

How the data were processed

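Total RNA of 112 gastrocnemius samples was sequenced after ribosomal depletion, in stranded libraries per the labels' protocols. The authors deposited 2 tables of raw counts per gene, 1 for each sex, while aligner, counter, genome build and strand setting were "not given in the sources used here". Without molecular identifiers, reads are not independent molecules.

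The tables were joined on 32544 gene symbols, and columns were matched to animal, sex and limb through the sample titles. Genes were kept by edgeR 4.0.16's filter (filterByExpr), scaled by TMM, and tested with its quasi-likelihood test in R 4.3.3, with limma 3.58.1 installed beside it. The model had a term for each animal and an effect of immobilization in each sex. From it came the effect in females, in males, their average and their difference. Levels in control limbs were fitted apart. Benjamini-Hochberg adjustment ran over all genes tested, 95% intervals are 1.96 SE either way, and the analysis was tested on simulated counts. CPM used TMM sizes, with a prior count of 2 for log2 CPM and a tolerance of 0.001 for animals called higher or lower.

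The limbs pair by animal number: over all genes, deviations correlated at a median of 0.364 within an animal and 0.0066 between animals, and on 150 genes 54 of 56 animals had their own limbs as best match. Exceptions were males 15 and 16. No libraries were identical.

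The 31 genes, the 7 lists of other pathway genes and the marker lists were chosen with earlier results of these data known. All 31 genes are described, and each pathway list gives at most 4 named genes past the threshold in females, males or the average, smallest p in the average first, or, with none past it, the 2 with the smallest p. A gene that this rule names is not reported here. Alternatives were median-of-ratios scaling, no filter, library sizes without mitochondrial genes and the 20 largest genes, DESeq2 1.42.0, each sex alone, no animal term, and leaving out animals with a low Acta1 library. Leaving out males 15 and 16, the blocks of animal numbers and the motifs were chosen after seeing the data. Permutation tests drew 100000 resamples, for which the smallest p is 1e-05.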

Additional observations from a re-analysis of the deposited data

How the results depend on the processing

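Counting noise limits the sparsest genes, Atg14, Uvrag and Tfe3, which fell to 10, 17 and 7 counts in their lowest library. Under both other scalings the numbers of autophagy genes past the threshold stayed as they were, except that Atg3 no longer passed in the average, and 4 rather than 5 had an unadjusted p of at most 0.05 in males. Of values for single genes under other settings, 1334 stayed on their side of the threshold, 32 came to pass and 28 no longer passed. In the main fit 1 gene passed in females, 0 in males, 7 in the average, 0 for the sex difference and 1 in control limbs. Most of the 1334 were thus values that passed in neither setting, and the 28 losses came from those few calls. Of the 1334, 105 changed sign without passing in either setting. The 1 value that changed sign for a gene past the threshold was Atg3 at 0.011 in animals 21 to 40 alone. Why results changed was not tested.

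Of 543 genes called in females, the number became 145 without the low-count filter, 1145 with DESeq2, 2017 without the low Acta1 animals and 84 with females fitted alone. Autophagy genes called higher in females numbered 1 with DESeq2 and 2 without the low Acta1 animals, and those called lower 0, 3, 6 and 0 under those 4 settings. In males 263 genes became 109, 576, 1071 and 582 under the same settings. Autophagy genes called higher in males numbered 1 with DESeq2, 2 without the low Acta1 animals and 1 with males fitted alone, and those called lower 1, 3 and 1. Without the low Acta1 animals the average had 3814 genes called, with 8 autophagy genes lower. Control limbs differed between the sexes at 836 genes without the filter and at 334 without the low Acta1 animals, where 2 autophagy genes were higher in males. There the correlations of Map1lc3b with Gabarapl1, of Map1lc3b with Bnip3 and of Bnip3 with Sqstm1 became -0.0646, -0.00386 and -0.205.

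With no replicate block, that is, without pairing the limbs of an animal, 589 genes were called in males, with 1 autophagy gene lower, and 1 gene differed between the sexes in its response. Counts in females and in the average stayed within 1.5 times.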

Other observations

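Markers of other cells of the muscle were followed beside the autophagy genes. Beside 9.58% of all genes, 3 of 6 fibroblast markers rose in the average by edgeR, with p adjusted over all genes tested. They were the collagen gene Col3a1, by 1.00 on the log2 scale (adjusted p = 0.000885), Lum, a proteoglycan of the matrix, by 0.51 (adjusted p = 0.00237), and the receptor Pdgfra, by 0.33 (adjusted p = 0.0128). Of 4 endothelial markers 3 fell, beside 10.4% of all genes, with Kdr, the receptor for VEGF, at -0.47 (adjusted p = 0.000966), Tek at -0.21 and Cdh5 at -0.20. The remaining endothelial marker, Pecam1, lay on the other side of 0, at 0.13, and did not pass (edgeR adjusted p = 0.226). With the low Acta1 animals left out, the counts were 3 fibroblast markers higher, 1 endothelial marker higher and 1 lower. Of all genes 16.0% were then higher and 16.5% lower.

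The 6 adipocyte markers and the 6 markers of muscle fibres had 0 calls in the average by edgeR and by DESeq2, and 0 with an unadjusted p of at most 0.05. All 6 adipocyte markers had estimates above 0 in females, with a median of 0.72, and below 0 in males, with a median of -0.93, and 0 passed in either sex or for the difference by edgeR, 0 also having an unadjusted p of at most 0.05. With the low Acta1 animals left out, 0 adipocyte markers passed and 1 fibre marker was higher. The summed adipocyte markers ranged widely, from 124 to 18300 CPM in control limbs of males. Markers of T, B and NK cells were too sparse to test, with group medians of their sum between 0.578 and 1.804 CPM and a highest value of 954 CPM in a control limb of a female.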
